A study of Mus musculus with 6 samples.

Results

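The 10 genes described here belong to the equipment of cytotoxic lymphocytes, that is natural killer (NK) cells and killer T cells: the receptors Klrc1, Klre1, Klrk1 and Ncr1, the death ligand gene Fasl, the granule genes Prf1, Gzma, Gzmb and Nkg7, and the transcription factor gene Eomes. They were selected on the FPKM values of the comparison described below, with Klrc1 and Fasl leading the choice, so their differences are a description and carry no test. All 10 were found by gene name among the 11789 protein-coding genes of the deposited table. RNA-seq was measured in 6 libraries labelled as alveolar macrophages, phagocytes that live in the air spaces of the lung. There were 3 libraries from A20 conditional knockout mice (columns A20-1, A20-3 and A20-4) and 3 from wild-type mice (columns BLM1, BLM2 and BLM3). All mice were C57BL/6, and both groups were collected after the exposure that the series title calls BLM. A20 is the product of Tnfaip3, a ubiquitin-editing inhibitor of NF-kB signalling. The Cre driver, the deleted part of the gene, the ages, the dose and time of exposure and the way the macrophages were isolated are not stated in the labels, nor is it stated whether a sample was 1 animal or a pool. P-values therefore reflect only how these samples spread, which can include technical variation.

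Cytotoxic lymphocytes carry granules with perforin, which opens pores in a target cell, and granzymes, the proteases that enter through them. A second route of killing runs through Fas ligand, which engages the death receptor Fas on the target. Whether a cell kills is set by a balance of inhibitory receptors, such as the heterodimer of Klrc1 (NKG2A) with Klrd1 (CD94), and activating ones, such as Klrk1 (NKG2D). Macrophages are not a usual source of perforin or granzymes. In bulk RNA, a different number of cells of a type and a different amount of RNA per cell cannot be told apart.

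Levels are given as FPKM, which counts fragments per length of transcript and per size of library. The targeted gene, Tnfaip3, had 8.44, 12.9 and 6.80 FPKM in the knockout libraries and 4.47, 2.18 and 21.6 FPKM in the wild-type libraries, so its level does not separate the labels. The summed FPKM of 15 alveolar macrophage markers was 6029 to 8478 in the knockout libraries and 6489, 7809 and 4565 in BLM1, BLM2 and BLM3. Single markers ranged widely, as shown by the highest and one of the lowest, both picked with their values known. Chil3 had 3269 to 5471 FPKM in the knockout and 2998 to 4765 FPKM in the wild-type libraries, and Krt79 had 17.8 to 37.9 FPKM in the knockout and 0.972 to 8.84 FPKM in the wild-type libraries. Library BLM3 stood apart from the others: the summed FPKM of 8 neutrophil marker genes was 2798 there, against 87.7 to 116 in the knockout libraries and 137 and 134 in BLM1 and BLM2. Sums of FPKM over all genes ran from 266094 to 294525 per library, and read depth is unknown.

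Klrc1, Fasl and Klrk1 were higher in every knockout library than in any wild-type library, while the other 7 genes overlapped between the groups. For 6 of those 7 the highest level of all was in BLM3. A gene was called when limma, fitted over the 10696 genes that averaged 1 FPKM or more, gave an adjusted p under 0.05. Of the 9 cytotoxic genes above that minimum, 2 were called higher (Klrc1 and Fasl) and 0 lower. Over all genes tested, 0.252% were called higher, 0.851% lower and 1.1% in either direction. Values that did not overlap, with knockout higher, were seen in 15.9% of genes tested. The genes had been chosen on this contrast, so nothing is read from these shares. Both calls ended when any single library other than BLM3 was left out, and without BLM3 there were 3 calls (Klrc1, Fasl and Nkg7), against 1.35% of all genes called higher and 2.5% called lower in that fit.

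**Figure D1:**
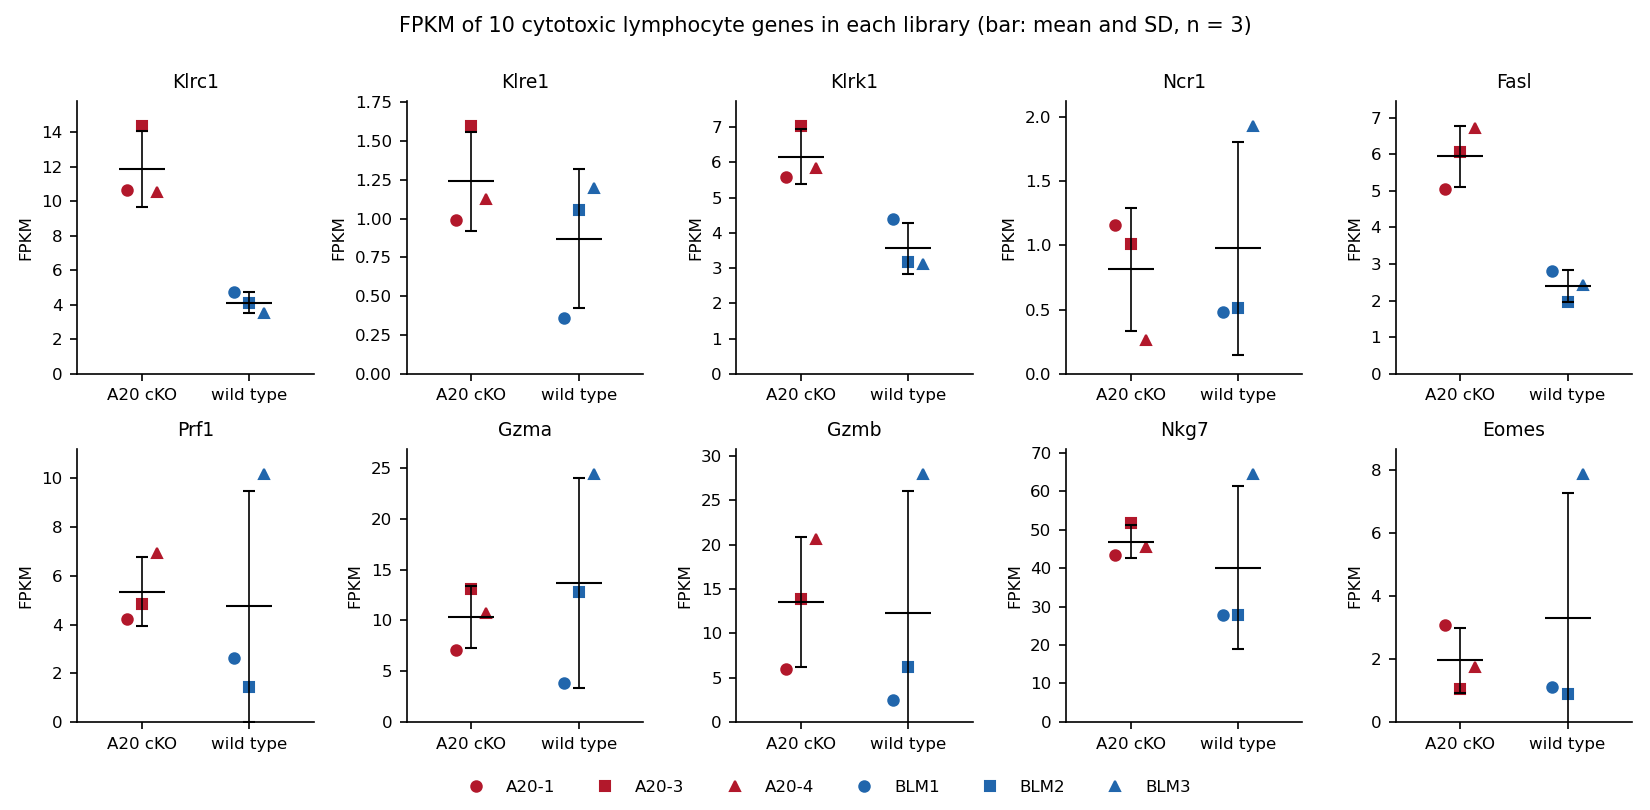
Each panel shows the FPKM of 1 gene in the 3 A20 conditional knockout (A20 cKO) and 3 wild-type libraries, with the group mean and SD as black bars (cut at 0 where the SD exceeds the mean). Klrc1, Klrk1 and Fasl separate the groups, whereas the triangle of BLM3 is the highest point for Ncr1, Prf1, Gzma, Gzmb, Nkg7 and Eomes.

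Klrc1 (ENSMUSG00000030167.15, GRCm38 chromosome 6, 129666015 to 129678973, minus strand) encodes NKG2A, an inhibitory receptor of NK cells and of some killer T cells. It had 10.7, 14.4 and 10.5 FPKM in A20-1, A20-3 and A20-4, and 4.73, 4.12 and 3.54 FPKM in BLM1, BLM2 and BLM3. The lowest knockout library was above the highest wild-type one by a wide margin, and BLM3 was the lowest of the 6. The means were 11.9 ± 2.19 FPKM in the knockout and 4.13 ± 0.596 FPKM in the wild-type libraries (SD, n = 3 each), a ratio of 2.87. On the log2(FPKM + 1) scale the difference, knockout minus wild type, was 1.32, and it was 1.24 without BLM3.

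Klrk1 (ENSMUSG00000030149.15, chromosome 6, 129610323 to 129623864, minus strand) encodes NKG2D, the activating receptor for stress-induced ligands. Its level was 5.58, 7.04 and 5.85 FPKM in the knockout libraries and 4.39, 3.18 and 3.11 FPKM in the wild-type libraries. The groups did not overlap, but the gap between A20-1 and BLM1 was narrow. The means were 6.16 ± 0.779 FPKM in the knockout and 3.56 ± 0.718 FPKM in the wild-type libraries (SD, n = 3 each), and the log2 difference of 0.66 was not called.

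Klre1 and Ncr1, the other receptors, were near the lower limit of the table. Klre1, a lectin-like NK receptor chain, had 0.994, 1.599 and 1.12 FPKM in the knockout and 0.360, 1.05 and 1.20 FPKM in the wild-type libraries. Ncr1, which encodes the activating receptor NKp46, had 1.16, 1.01 and 0.265 FPKM in the knockout and 0.481, 0.516 and 1.93 FPKM in the wild-type libraries. Both overlapped, and Ncr1 fell under the minimum mean of 1 FPKM and was left out of the fit.

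Fasl (ENSMUSG00000000817.10, chromosome 1, 161780689 to 161788495, minus strand) had 5.04, 6.07 and 6.71 FPKM in the knockout libraries and 2.81, 1.95 and 2.42 FPKM in the wild-type libraries. Every knockout library was well above every wild-type one, and BLM3 lay between BLM1 and BLM2 here. The means were 5.94 ± 0.842 FPKM in the knockout and 2.40 ± 0.431 FPKM in the wild-type libraries (SD, n = 3 each), a ratio of 2.48 and a log2 difference of 1.03, or 1.04 without BLM3.

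The granule genes followed another pattern. Perforin, Prf1, had 4.24, 4.86 and 6.94 FPKM in the knockout libraries, against 2.61, 1.45 and 10.2 FPKM in BLM1, BLM2 and BLM3. Nkg7, whose granule membrane protein takes part in degranulation, had 43.5, 51.8 and 45.4 FPKM in the knockout libraries, against 27.8, 27.9 and 64.5 FPKM in the wild-type libraries. In both, the knockout libraries lay above BLM1 and BLM2 and below BLM3. The log2 difference was 0.43 for Prf1, or 1.07 without BLM3, and 0.33 for Nkg7, or 0.73 without BLM3.

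The granzymes also varied widely between libraries of the same group. Gzmb, which cuts caspases and Bid in the target cell, had 6.00, 13.9 and 20.6 FPKM in the knockout and 2.47, 6.23 and 28.0 FPKM in the wild-type libraries. Gzma, the tryptase-like granzyme, had 7.12, 13.1 and 10.7 FPKM in the knockout and 3.84, 12.8 and 24.4 FPKM in the wild-type libraries. For both genes the groups overlapped, also without BLM3, and BLM3 was the highest of the 6 libraries. The SD in the wild-type libraries was 13.8 FPKM for Gzmb and 10.3 FPKM for Gzma, about the size of the means of 12.2 and 13.7 FPKM.

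Eomes, a T-box factor that drives the NK and memory killer T cell programmes, had 3.08, 1.05 and 1.74 FPKM in the knockout libraries and 1.12, 0.874 and 7.88 FPKM in the wild-type libraries. It overlapped, with BLM3 far above the other 5 libraries. Its log2 difference was -0.21, and 0.51 without BLM3.

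Several of these differences changed sign with the libraries used. With 6 libraries 7 of the 10 genes had a positive difference and the median was 0.38, against a median of 0.02 over all genes tested. Without BLM3 all 10 were positive with a median of 0.66, against 0.03 over all genes tested, and Ncr1, Gzma and Eomes were the genes that turned. BLM3 was the highest library for 6 of the 10, so leaving it out must raise their differences. The genes were also chosen on this contrast, so nothing is read from the signs, medians or overlaps without BLM3. Other libraries turned signs too. Without BLM2 the difference of Prf1 was -0.02, and without BLM1 that of Gzmb was -0.14. Without A20-1 the difference of Gzma was 0.11, and without A20-3 that of Eomes was 0.03. Without BLM3 the groups did not overlap for 5 of the 10 genes (Klrc1, Klrk1, Fasl, Prf1 and Nkg7), compared with 23.5% of genes tested. Klrc1, Klrk1 and Fasl kept differences of 1.24, 0.59 and 1.04 without BLM3, and Gzmb reached 1.39, against 0.54 with it.

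**Figure D2:**
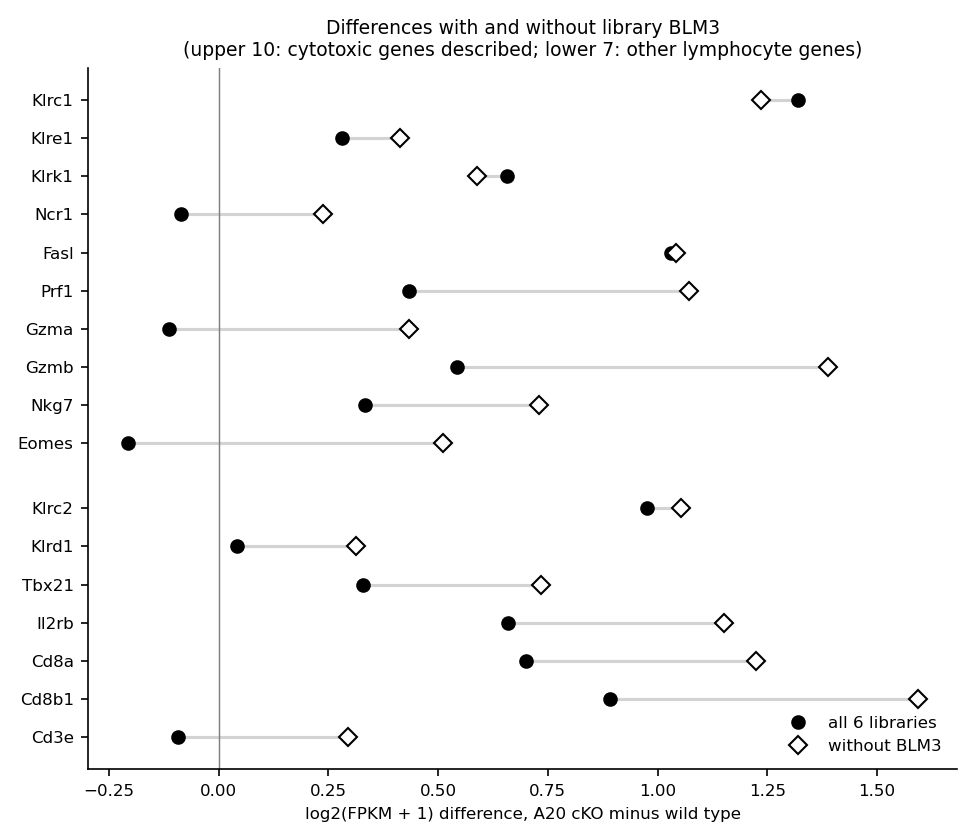
Differences of mean log2(FPKM + 1), A20 conditional knockout minus wild type, with all 6 libraries (filled circles) and without BLM3 (open diamonds), for the 10 cytotoxic genes and 7 other lymphocyte genes. Klrc1, Klrk1, Fasl and Klrc2 hardly move, while Gzmb goes to 1.39 and Cd8b1 to 1.59 without BLM3.

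Markers of T cells were present in every library and moved with part of this pattern. Of 24 T cell markers all passed the minimum, 0 rose and 0 fell with 6 libraries (1 at an unadjusted p under 0.05), and their median difference was -0.28. Over all genes tested, 20.3% (2172 of 10696) had an unadjusted p under 0.05, and the unadjusted counts of this and the other lists are to be read beside that share. Their summed level was 427 to 482 FPKM in the knockout libraries and 452, 301 and 796 FPKM in BLM1, BLM2 and BLM3, and 22 of the 24 were highest in BLM3. Cd2, an adhesion receptor of T and NK cells, was lowest in BLM3, at 92.2 ± 9.17 FPKM in the knockout and 65.5 ± 12.5 FPKM in the wild-type libraries (limma adjusted p = 0.175). The CD8 genes, which mark killer T cells, took the order seen for Prf1 and Nkg7. Cd8b1 had 43.2, 54.9 and 62.7 FPKM in the knockout and 21.7, 13.1 and 75.8 FPKM in the wild-type libraries, and Cd8a 23.5, 32.5 and 36.1 FPKM in the knockout and 12.5, 12.3 and 38.8 FPKM in the wild-type libraries. Without BLM3 these were the 2 T cell markers that rose, by 1.59 ± 0.24 for Cd8b1 and 1.22 ± 0.18 for Cd8a (log2 difference ± SE, limma adjusted p = 0.0273 for each), and they were named after their values were seen. Their part in the levels of the cytotoxic genes was not tested.

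Levels were also set against other lymphocyte genes of the same library, a comparison chosen after the values were seen. Klrd1, Nkg7, Cd3e and Cd8a were highest in BLM3, where Klrc1 was lowest, so its BLM3 ratios were bound to be lowest. Klrc1 and Fasl were chosen on this contrast, so the ratios are a description and carry no test. Klrc1 divided by Klrd1, its partner chain, was 0.627, 0.862 and 0.621 in the knockout and 0.360, 0.301 and 0.145 in the wild-type libraries. Divided by Nkg7 it was 0.245, 0.278 and 0.232 in the knockout and 0.170, 0.148 and 0.0548 in the wild-type libraries. Neither ratio overlapped between the groups, nor did Klrc1 divided by Cd3e, a T cell receptor chain, at 0.743, 1.004 and 0.759 in the knockout against 0.307, 0.493 and 0.132 in the wild-type libraries. Divided by Cd8a, however, Klrc1 overlapped, at 0.455, 0.442 and 0.292 in the knockout and 0.380, 0.335 and 0.0912 in the wild-type libraries. Fasl divided by Cd8a overlapped too, at 0.215, 0.187 and 0.186 in the knockout and 0.226, 0.159 and 0.0625 in the wild-type libraries. Klrk1 overlapped when divided by Klrd1, Nkg7 or Cd8a and did not when divided by Cd3e or Thy1.

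**Figure D3:**
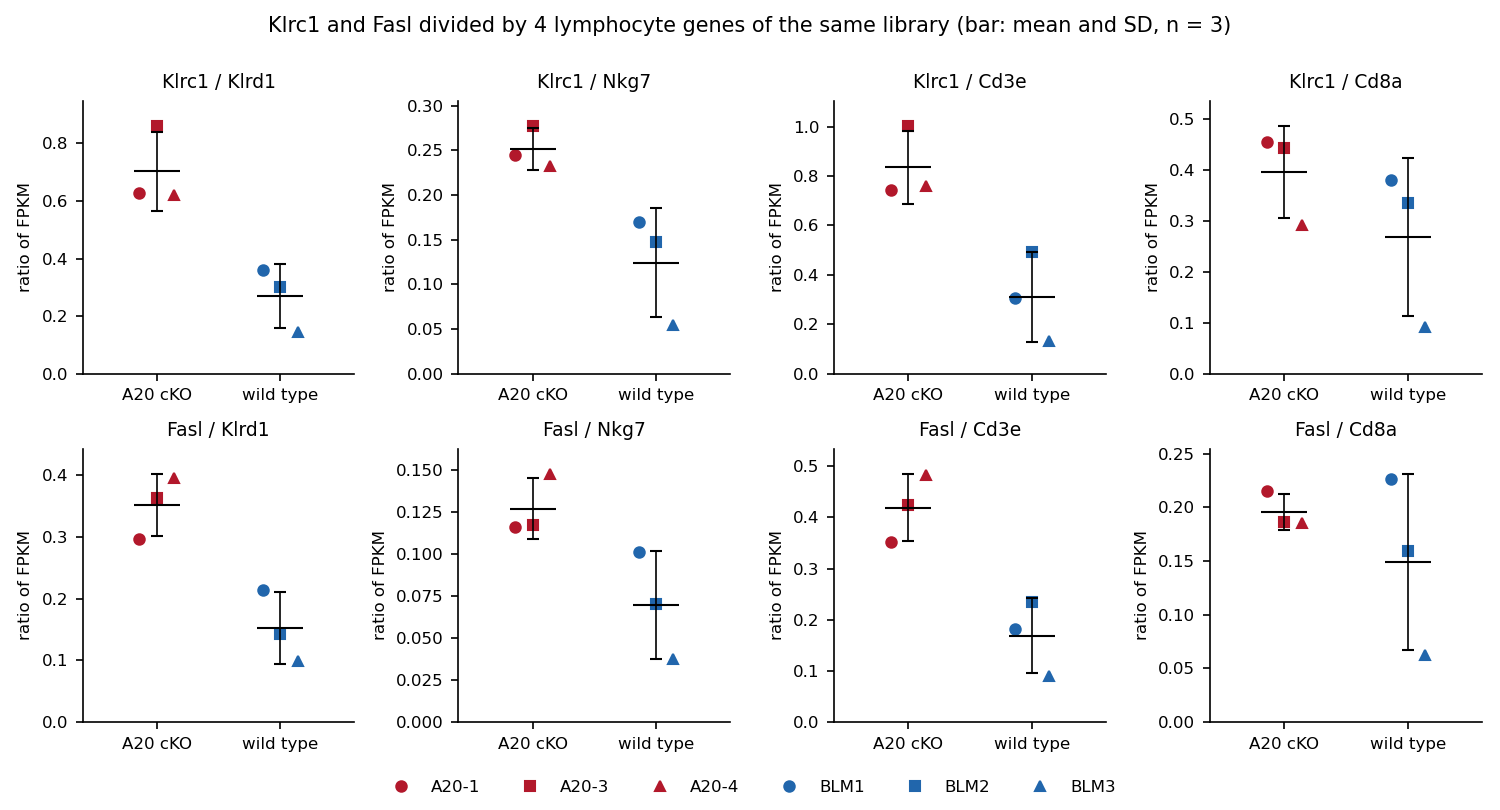
FPKM of Klrc1 (upper row) and Fasl (lower row) divided by the FPKM of Klrd1, Nkg7, Cd3e or Cd8a in the same library, with group mean and SD in black. The groups separate for the first 3 divisors and overlap for Cd8a, with BLM3 lowest throughout.

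The lectin-like receptor genes lie together in the NK gene complex of chromosome 6, and Klre1, Klrk1 and Klrc1 fall within 101 kb. The neighbours of Klrc1 within 250 kb were therefore examined, 12 genes in the table, in a window chosen after the values were seen. From Klrd1 to Klrc1 the difference was larger for each gene closer to Klrc1, but this order did not hold over the whole window. Klre1, farther out than Klrd1, had a log2 difference of 0.28, and Klri1, on the other side of Klrc1, had -0.34. Klrc1 and Klrk1 are among the genes chosen on this contrast, so nothing is read from the order. Klrd1, the CD94 chain shared by the NKG2 receptors, had 17.0, 16.7 and 17.0 FPKM in the knockout and 13.1, 13.7 and 24.4 FPKM in the wild-type libraries (log2 difference 0.04 ± 0.23, SE, limma adjusted p = 0.935). Klrc3 and Klrc2, close relatives of Klrc1, had log2 differences of 0.83 ± 0.28 and 0.98 ± 0.16 (SE), with limma adjusted p of 0.175 and 0.0537. Klrc2 had 2.14, 3.18 and 2.12 FPKM in the knockout and 0.674, 0.646 and 0.949 FPKM in the wild-type libraries, with no overlap, and it passed the threshold without BLM3 (1.05 ± 0.16, adjusted p = 0.0302) and under TPM scaling (adjusted p = 0.0457). Reads of Klrc1, Klrc2 and Klrc3 can be split between these near-identical genes, so their separate levels are uncertain. On the other side of Klrc1 the groups overlapped for Klri1 and Klri2, the chains with which Klre1 pairs.

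**Figure D4:**
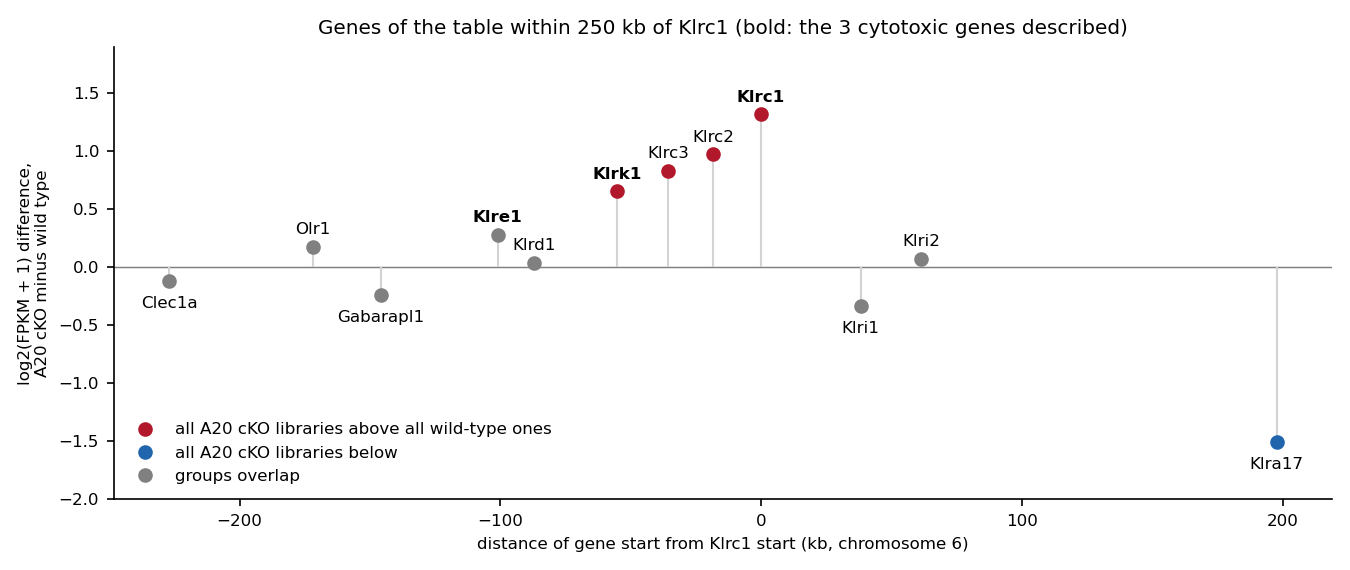
Difference of mean log2(FPKM + 1), A20 conditional knockout minus wild type, for the 12 genes of the table within 250 kb of the start of Klrc1, placed by the distance of their start from it. Klrk1, Klrc3, Klrc2 and Klrc1 are higher in all knockout libraries, Klra17 is lower in all, and the other 7 overlap.

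The promoters of the 10 genes were compared because several of them moved together across libraries. The 250 bases before each RefSeq start (GRCm38.p6) were searched on both strands for the Runx core TGTGGT, the T-box motif TCACAC, the Ets core GGAAGT, the AP-1 site TGANTCA, the STAT site TTCNNNGAA and the kappa B consensus. The Runx core was found before 8 of the 10 genes, all but Fasl and Eomes, compared with 15.9% of 27025 genes with such a window. The T-box motif was found before 4 of 10 (Gzmb, Klre1, Ncr1 and Nkg7), compared with 13.9% of genes. The Ets core was found before 2 of 10 (Fasl and Prf1) against 22.2% of genes, and AP-1 and STAT sites before 1 each, Gzmb and Nkg7, against 7.82% and 8.13%. A kappa B match was found before 0 of 10, and before 4.46% of all genes. Klre1 and Ncr1 have 2 overlapping windows each, and a gene was counted when either held the motif. Matches of different motifs did not overlap each other, a match is a description of these letters only, and the shares were not tested.

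Sequences are given for the 3 genes whose groups did not overlap (Klrc1, Klrk1 and Fasl) and for Nkg7 and Gzmb, whose highest level was in BLM3. Each runs 5′ to 3′ toward the start of its gene, with motif matches in capitals (ACCACA and ACTTCC are the Runx and Ets cores read on the other strand, and GTGTGA the T-box motif). The windows are chr6:129678974-129679223, minus strand, for Klrc1, chr6:129623865-129624114, minus strand, for Klrk1, chr1:161788496-161788745, minus strand, for Fasl, chr7:43436888-43437137, plus strand, for Nkg7, and chr14:56262335-56262584, minus strand, for Gzmb.
Klrc1: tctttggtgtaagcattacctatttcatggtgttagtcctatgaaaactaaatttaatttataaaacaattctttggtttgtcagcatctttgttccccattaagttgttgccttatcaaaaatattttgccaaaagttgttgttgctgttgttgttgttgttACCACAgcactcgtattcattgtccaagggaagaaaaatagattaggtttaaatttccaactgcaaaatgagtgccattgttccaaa
Klrk1: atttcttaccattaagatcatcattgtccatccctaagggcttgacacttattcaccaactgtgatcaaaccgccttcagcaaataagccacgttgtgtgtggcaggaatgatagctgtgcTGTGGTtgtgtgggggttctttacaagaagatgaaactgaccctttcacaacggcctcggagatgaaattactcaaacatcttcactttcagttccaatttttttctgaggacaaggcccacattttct
Fasl: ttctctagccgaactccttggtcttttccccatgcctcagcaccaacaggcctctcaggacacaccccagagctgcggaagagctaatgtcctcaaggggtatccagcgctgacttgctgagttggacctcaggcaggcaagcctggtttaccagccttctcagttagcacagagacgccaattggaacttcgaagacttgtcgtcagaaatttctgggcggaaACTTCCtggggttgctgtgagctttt
Nkg7: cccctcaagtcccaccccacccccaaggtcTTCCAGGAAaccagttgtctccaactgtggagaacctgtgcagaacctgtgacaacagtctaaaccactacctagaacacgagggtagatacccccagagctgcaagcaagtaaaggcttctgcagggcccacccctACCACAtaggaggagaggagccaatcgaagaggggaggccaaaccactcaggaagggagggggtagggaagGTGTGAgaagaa
Gzmb: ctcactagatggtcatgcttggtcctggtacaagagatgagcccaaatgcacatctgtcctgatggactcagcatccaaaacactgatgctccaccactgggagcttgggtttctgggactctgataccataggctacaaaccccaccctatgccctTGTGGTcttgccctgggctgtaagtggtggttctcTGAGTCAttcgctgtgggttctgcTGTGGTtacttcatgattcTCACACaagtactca
Klrc1 and Klrk1 each hold 1 Runx core and no other match, Fasl holds 1 Ets core, Nkg7 a STAT site, a Runx core and a T-box motif, and Gzmb 2 Runx cores, an AP-1 site and a T-box motif. The genes that separated the groups thus had no motif of this set in common, and the Runx core was shared by genes of both patterns.

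Other genes of these pathways were counted from lists written by hand. Among 32 further NK receptor and adaptor genes 27 were in the table and 21 tested, of which 0 rose and 0 fell (5 at an unadjusted p under 0.05), with a median of -0.23 (0.20 without BLM3). Without BLM3, Klrc2 rose and Slamf7, an activating receptor also made by myeloid cells, fell (-0.76 ± 0.15, SE, limma adjusted p = 0.0472). With 6 libraries Slamf7 had 17.1 ± 2.75 FPKM in the knockout and 31.2 ± 3.32 FPKM in the wild-type libraries (SD, n = 3 each, limma adjusted p = 0.0592). The signalling adaptors were not called: Tyrobp (DAP12) had 829 ± 50.1 FPKM in the knockout and 1025 ± 110.5 FPKM in the wild-type libraries, and Hcst (DAP10), the adaptor of NKG2D, 21.1 ± 2.19 FPKM in the knockout and 28.9 ± 9.06 FPKM in the wild-type libraries.

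Of 16 further granule and secretion genes 0 rose and 0 fell (0 at an unadjusted p under 0.05), with a median of -0.18 (0.05 without BLM3). Srgn, the proteoglycan core of cytotoxic and myeloid granules, had 37.0, 48.5 and 16.4 FPKM in the knockout and 55.8, 52.2 and 305.5 FPKM in the wild-type libraries (limma adjusted p = 0.280). Ctsc, the protease that activates granzymes, had 166 ± 36.4 FPKM in the knockout and 149 ± 44.2 FPKM in the wild-type libraries. Gzmk, a further granzyme, had 4.58 ± 1.097 FPKM in the knockout and 3.29 ± 0.570 FPKM in the wild-type libraries (limma adjusted p = 0.314).

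Of 11 tested transcription factor genes 0 rose and 0 fell (2 at an unadjusted p under 0.05), with a median of -0.08 (0.31 without BLM3). Tbx21, T-bet, had 5.78, 5.48 and 3.802 FPKM in the knockout and 2.59, 2.57 and 7.29 FPKM in the wild-type libraries (log2 difference 0.33 ± 0.35, SE, limma adjusted p = 0.621). It took the order of Prf1 and Nkg7, with BLM3 highest and the knockout libraries above BLM1 and BLM2. Nfil3, needed for NK cell development, had 21.4, 44.6 and 48.5 FPKM in the knockout and 11.7, 16.3 and 23.3 FPKM in the wild-type libraries (1.08 ± 0.36, SE, limma adjusted p = 0.178). Nfil3 is also made by macrophages. Prdm1, Blimp-1, had 6.36 ± 0.425 FPKM in the knockout and 4.82 ± 0.732 FPKM in the wild-type libraries, without overlap but not called (adjusted p = 0.202). Id2 was lower without overlap and not called either (-0.63 ± 0.30, SE, limma adjusted p = 0.290). It had 74.7, 79.8 and 36.1 FPKM in the knockout and 101.6, 85.4 and 94.7 FPKM in the wild-type libraries. Of the 11 factors 5 had a positive and 6 a negative difference.

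Of 27 tested cytokines, chemokines and receptors that act on NK cells 0 rose and 0 fell (4 at an unadjusted p under 0.05), with a median of -0.12 (0.13 without BLM3). Il12rb2, a chain of the interleukin-12 receptor, had 4.42 ± 0.708 FPKM in the knockout and 2.34 ± 0.454 FPKM in the wild-type libraries without overlap (0.70 ± 0.15, SE, limma adjusted p = 0.0889). Ifngr1, a chain of the interferon-gamma receptor, had 97.5 ± 7.98 FPKM in the knockout and 69.98 ± 4.89 FPKM in the wild-type libraries (adjusted p = 0.103). Without BLM3 Il2rb, the shared chain of the interleukin-2 and interleukin-15 receptors, rose (1.15 ± 0.13, SE, limma adjusted p = 0.0161). It had 28.9, 36.5 and 33.6 FPKM in the knockout and 15.4, 13.2 and 41.4 FPKM in the wild-type libraries, again with BLM3 highest. Ifng, the main cytokine of NK cells, rose without BLM3 as well (1.23 ± 0.24, SE, limma adjusted p = 0.0464). It had 3.22, 5.50 and 3.54 FPKM in the knockout and 0.808, 1.52 and 5.06 FPKM in the wild-type libraries. With 6 libraries Ifng overlapped and was not called (limma adjusted p = 0.390). The chemokine receptor Xcr1, a marker of a dendritic cell subset, fell without BLM3 (-1.36 ± 0.19, SE, adjusted p = 0.0236). It was not called with 6 libraries (adjusted p = 0.193). The NK growth factor Il15 was low, at 2.17 ± 0.118 FPKM in the knockout and 2.56 ± 1.16 FPKM in the wild-type libraries. Il18 had 100.4 ± 8.13 FPKM in the knockout and 69.9 ± 28.3 FPKM in the wild-type libraries (limma adjusted p = 0.327).

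Among 17 tested ligands of NK receptors 1 fell and 0 rose (4 at an unadjusted p under 0.05), with a median of -0.11 (-0.02 without BLM3). The gene that fell was Raet1e, of the RAE-1 family of NKG2D ligands. It had 0.675, 0.629 and 0.541 FPKM in the knockout and 1.65, 1.64 and 1.74 FPKM in the wild-type libraries (log2 difference -0.73 ± 0.11, SE, limma adjusted p = 0.0436). All knockout values were well below all wild-type values, though both are low. The related Raet1d had 1.15 ± 0.1004 FPKM in the knockout and 2.55 ± 0.455 FPKM in the wild-type libraries, also without overlap (limma adjusted p = 0.0655). Nectin2, a ligand of Cd226, was lower without overlap too, at 1.54 ± 0.162 FPKM in the knockout and 2.87 ± 0.484 FPKM in the wild-type libraries (adjusted p = 0.0889). Ulbp1, the NKG2D ligand MULT1, was picked with its values known and did overlap, at 5.90, 5.30 and 5.99 FPKM in the knockout and 5.11, 6.32 and 3.39 FPKM in the wild-type libraries (adjusted p = 0.566). RAE-1 genes are near copies of each other, so their reads can be split between them. The call of Raet1e ended with a pseudocount of 0.1, under TPM scaling and on leaving out any library but BLM3 (adjusted p up to 0.182). H2-T23, the source of Qa-1 bound by NKG2A, had 104 ± 4.005 FPKM in the knockout and 119 ± 24.5 FPKM in the wild-type libraries (adjusted p = 0.556). Without BLM3 the class I gene H2-Q7, which has near copies too, rose (0.74 ± 0.12, SE, limma adjusted p = 0.0313). With 6 libraries it overlapped and was not called (0.27 ± 0.38, SE, limma adjusted p = 0.720). BLM3 was its highest library, at 126.6 FPKM, so leaving it out must raise the difference.

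On the target side, 0 of 19 tested genes of the death receptor pathway rose or fell (1 at an unadjusted p under 0.05), with a median of -0.03. Fas, the receptor of Fas ligand, had 11.3, 14.3 and 12.6 FPKM in the knockout and 9.35, 10.5 and 24.8 FPKM in the wild-type libraries (log2 difference -0.09 ± 0.34, SE, limma adjusted p = 0.902). Tnfsf10, TRAIL, a further death ligand of cytotoxic cells, had 5.58, 4.05 and 3.58 FPKM in the knockout and 2.37, 2.24 and 4.09 FPKM in the wild-type libraries (0.49 ± 0.22, SE, limma adjusted p = 0.278). Casp8, the initiator caspase, had 44.3 ± 2.89 FPKM in the knockout and 43.2 ± 3.35 FPKM in the wild-type libraries, and Cflar, which restrains it, 9.21 ± 0.840 FPKM in the knockout and 12.1 ± 4.68 FPKM in the wild-type libraries. Of 5 genes that guard against granzymes or perforin 1 fell and 0 rose. The member that fell was Ctsb, cathepsin B, at 354 ± 25.9 FPKM in the knockout and 687 ± 29.4 FPKM in the wild-type libraries (-0.96 ± 0.11, SE, limma adjusted p = 0.0261). Cathepsin B is best known as a lysosomal protease that macrophages make in quantity, and its call was lost on leaving out any library but BLM3 (adjusted p up to 0.133). The granzyme B inhibitor Serpinb9 had 10.6 ± 1.18 FPKM in the knockout and 13.0 ± 2.17 FPKM in the wild-type libraries (adjusted p = 0.359).

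**Figure D5:**
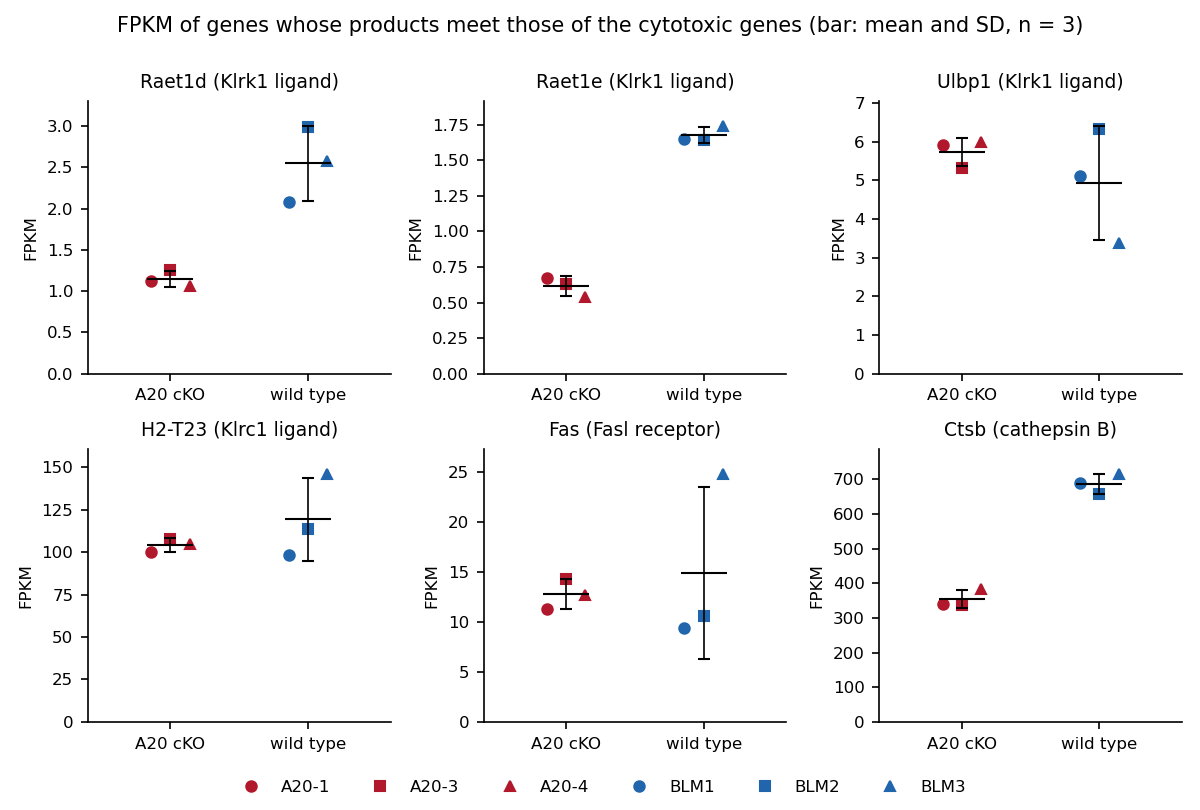
FPKM in the 3 A20 conditional knockout (A20 cKO) and 3 wild-type libraries of 3 NKG2D ligand genes, the NKG2A ligand gene H2-T23, Fas and Ctsb, with group mean and SD in black. Raet1d, Raet1e and Ctsb are lower in all knockout libraries, while Ulbp1, H2-T23 and Fas overlap.

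Markers of further cell types were read beside these results. Of 9 tested B cell markers 0 rose and 0 fell (1 at an unadjusted p under 0.05), and their sum was 40.8 to 57.0 FPKM in the knockout libraries and 154, 45.8 and 138 FPKM in BLM1, BLM2 and BLM3. Innate lymphoid cell markers summed to 12.7 to 16.9 FPKM in the knockout and 17.6 to 37.7 FPKM in the wild-type libraries. By limma 0 of 4 were called (3 at an unadjusted p under 0.05), and Il13, Il5 and Il22 were not analysed here. Areg of this list fell without BLM3 (-0.98 ± 0.16, SE, limma adjusted p = 0.0313). Lung epithelial markers summed to 314 to 399.6 FPKM in the knockout and 81.6 to 222 FPKM in the wild-type libraries (0 of 11 called, 6 at an unadjusted p under 0.05). Of these markers 3 were higher and 3 lower in the knockout libraries without overlap. Scgb1a1, picked with its values known, had 291, 217 and 112 FPKM in the knockout and 66.6, 111 and 23.1 FPKM in wild-type libraries. Without BLM3 Krt18 and Krt8 fell (limma adjusted p = 0.0114 for Krt18 and 0.0268 for Krt8). Erythroid markers ranged from 188 to 3551 FPKM in the knockout and from 317 to 2484 FPKM in the wild-type libraries (0 of 5 called, 0 unadjusted). Dendritic cell markers ranged from 46.9 to 56.0 FPKM in the knockout and from 62.6 to 95.1 FPKM in the wild-type libraries (0 of 8 called, 2 unadjusted). Flt3, Xcr1 and Clec9a of the dendritic cell markers fell without BLM3 (limma adjusted p = 0.0276, 0.0236 and 0.0453). Of 15 alveolar macrophage markers 1 fell (Marco) and 0 rose (7 at an unadjusted p under 0.05), with a median of 0.54 (0.14 without BLM3). Of these markers 12 had a positive difference and 5 were higher in the knockout libraries without overlap. Cidec had 37.5, 31.0 and 42.1 FPKM in the knockout and 6.02, 12.7 and 2.24 FPKM in the wild-type libraries (limma adjusted p = 0.0747), and Krt79 had 2.68 ± 0.58 as its log2 difference (SE, adjusted p = 0.0889). Without BLM3 both of these rose (adjusted p of 0.0266 for Cidec and 0.0462 for Krt79). For neutrophils, 0 of 7 tested neutrophil markers were called (1 unadjusted), and 4 were lower in the knockout libraries without overlap. Without BLM3 S100a8 fell (-1.25 ± 0.15, SE, limma adjusted p = 0.0185) and Ltf rose (1.25 ± 0.24, SE, adjusted p = 0.0471). The part of these cells in the levels of the cytotoxic genes was not tested.

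Over the 6 libraries the Pearson r of log2(FPKM + 1) was 0.969 for Klrc1 with Klrk1. It was 0.948 for Klrc1 with Fasl and 0.941 for Klrk1 with Fasl. These correlations are a description over 6 libraries that fall into 2 groups. Each of these genes separated the groups, which alone makes r high, so r does not show that they vary together within a group. Klrc1 and Klrk1 were both highest in A20-3 and lowest in BLM3. Fasl had 6.07 FPKM in A20-3, below its highest knockout value of 6.71 FPKM. In BLM3 it had 2.42 FPKM, above its 1.95 FPKM in BLM2. Among 10687 other genes tested, those most like Klrc1 by this measure were Immt, 4930430F08Rik, Wdfy2, Coq8b and Enpp4, with r of 0.999 to 0.994. Those most like Fasl were Fbxo45, Hdac5, Papd5, B4galnt1 and Acd, with r of 0.999 to 0.992. None of these is in the hand-written lists. Immt, the first, encodes a mitochondrial inner membrane protein and had 6.30, 6.80 and 6.24 FPKM in the knockout and 5.12, 5.03 and 4.85 FPKM in the wild-type libraries.

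Of all 10696 genes tested, 27 rose and 91 fell, a share of rises of 22.9%, and with FPKM rescaled to TPM 41 rose and 64 fell, a share of 39.0%. TPM scaling moved the median difference of all genes to 0.10, against 0.02. Values that did not overlap, with knockout lower, were seen in 13.1% of genes tested.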

How the data were processed

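Per the labels' protocols, a stranded kit was used on 1 ug of RNA. The authors deposited FPKM per gene and library, per the file headers, with GRCm38 as the genome build (per the submitters' processing notes). For the aligner, quantifier, annotation release and use of strand, the sources used here give nothing. Group membership followed the column names. The columns named only for the exposure were taken as wild type, since the labels hold 2 groups. No column of values was left unused. Every listed gene has a mean of at least 0.500 FPKM in its higher group.

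Genes with a mean of at least 1 FPKM (10696 of 11789) were compared as log2(FPKM + 1), a pseudocount of 1, with limma 3.58.1 in R 4.3.3 (trend on mean expression), two-sided, Benjamini-Hochberg adjusted over all genes tested, at 0.05. This scale understates changes of low genes. The 10 genes and all lists were chosen with earlier results of these data known. Named are the 10 genes, 15 fixed partners, the 3 smallest p values of each pathway list (given singly where they bear on the 10 genes), the 5 genes most like Klrc1 and Fasl, and genes picked with their values known, which the text marks, or called without BLM3. All 10 genes had the same coordinates in GENCODE M21, and all 10 matched a RefSeq promoter window. RefSeq and GENCODE starts can differ. By the GENCODE coordinates both Klre1 windows, and the end of the Nkg7 window with its T-box match, lie inside the gene. The RefSeq starts of Eomes, Prf1, Gzmb and an Ncr1 window did not match a GENCODE transcript. Alternatives were pseudocounts of 0.1 and 5, no minimum, TPM scaling and leaving out each library.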

Additional observations from a re-analysis of the deposited data

How the results depend on the processing

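No paired analysis was possible because the columns are numbered differently from the titles' replicates. Leaving out 1 library at a time gave 0 (without A20-3, with 1694 genes at an unadjusted p under 0.05) to 411 (without BLM3) genes past the threshold, against 118. Without A20-1 there were 35, without A20-4 14, without BLM1 4 and without BLM2 92. Over the same settings the lists had 0 to 2 calls for NK receptors, 0 to 1 for granzyme inhibitors, 0 to 2 for ligands, 0 to 3 for cytokines, 0 to 2 for T cell, 0 to 4 for B cell (4 falls without BLM2), 0 to 1 for innate lymphoid, 0 to 2 for neutrophil, 0 to 3 for dendritic cell, 0 to 3 for alveolar macrophage and 0 to 2 for epithelial markers. With a pseudocount of 0.1 the calls of ligands and of alveolar macrophage markers went to 0 each. Under TPM scaling both were 0 as well, and NK receptors had 1 call. Fits with a library left out have fewer values. The cause of the other changes was not tested. Read depth is unknown, so low values such as those of Ncr1, Klre1 and Raet1e carry no counting interval.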

Other observations

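The Ly49 receptors, encoded by the Klra genes on the far side of the NK gene complex, did not share the pattern of Klrc1. Klra17 (Ly49Q) had 0.858, 0.313 and 0.656 FPKM in the knockout libraries and 3.05, 2.69 and 5.25 FPKM in the wild-type libraries, and fell (log2 difference -1.51 ± 0.24, SE, limma adjusted p = 0.0480, lower in 3 of 3 libraries). It was named after its values were seen, and its call ended with a pseudocount of 0.1 or 5, under TPM scaling and on leaving out any library but BLM3 (adjusted p up to 0.191). Klra3 had 2.42, 1.42 and 2.41 FPKM in the knockout and 3.81, 4.997 and 6.07 FPKM in the wild-type libraries, without overlap, and was not called (-0.95 ± 0.20, SE, limma adjusted p = 0.0857). Klra4, Klra7, Klra8 and Klra9, picked with their values known, overlapped, and each was highest in BLM3, at 4.40, 4.65, 5.85 and 2.29 FPKM. Klra genes are near copies of each other, so their reads can be split between them.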
